A study of Mus musculus with 6 samples.

Results

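Transcripts of neutrophil granule proteins and neutrophil receptors were examined in gastrocnemius muscle, the large muscle of the calf. The 10 genes were *Mpo*, *Elane*, *Prtn3*, *Ngp*, *Camp*, *Ltf*, *Lcn2*, *Retnlg*, *Cxcr2* and *Csf3r*, taken by gene symbol from 23997 symbols listed for each library, and all 10 were found. The libraries came from 3 HrasG12V mice (2276, 2278 and 2279) and 3 wild-type (WT) littermates (2277, 2280 and 2281), 1 library per mouse, all 21 days old and untreated. HrasG12V mice were Caggs-Cre+/HrasG12V/+, heterozygous for an activated *Hras* allele under its own promoter. WT mice were Caggs-Cre-/HrasflG12V/+, so they carried the floxed allele in its unrecombined form and no Cre, and the presence of Cre and of the activated allele cannot be told apart in this comparison. Both groups came from breeders on a mixed background of SWR/J, C57BL/6J and 1 further inbred strain. The Cre transgene is driven by the broadly active CAG promoter, so the allele is not limited to muscle fibers and blood cells can carry it too. Values are FPKM, read numbers scaled to transcript length and to the size of the library, so levels of different genes can be compared.

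Neutrophils are made in the bone marrow and fill their granules in a fixed order. Promyelocytes transcribe the genes of the primary (azurophil) granules, among them *Mpo*, *Elane* and *Prtn3*. Myelocytes and metamyelocytes then transcribe the genes of the secondary (specific) granules, among them *Ngp*, *Camp*, *Ltf* and *Lcn2*, and the cells that leave for the blood have largely shut off both sets and transcribe receptors and effectors such as *Cxcr2*, *Csf3r* and *Retnlg*. Healthy skeletal muscle holds few neutrophils.

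The 6 libraries differed in ways that bear on these genes. In mice 2278 and 2279 transcripts of B cells, T cells and lymph node stroma were present at levels far above those of the other 4 libraries. All 5 genes of the lymph node stroma list were above every WT value in both mice, as were 19.9% of all tested genes. *Glycam1*, a mucin of lymph node venules, was at 192 and 294 FPKM there, against 0.186 for mouse 2276 and a WT range of 0.0537 to 0.242. Mouse 2276 had a sum of FPKM of 814013, against 413020 to 547122 in the other 5 libraries, and 43.1% of all tested genes were above every WT value in that mouse. Of 9 muscle genes used to check the tissue, *Pvalb* (10828 to 32969 FPKM) and *Mb* (516 to 3015 FPKM) were abundant in every library, while *Acta1*, *Myh4* and *Atp2a1* were listed at 0 in all 6. *Ckm* was listed at 0 in all but mouse 2278 (7165 FPKM), and *Tnnt3* was listed at 0 in mouse 2276 only, at 6893 to 10419 FPKM in the other 5. A listed 0 can therefore be a failed estimate, also in mouse 2276 alone, so genes listed at 0 are given mouse by mouse. FPKM carry no read numbers. The study's methods give 1 nominal depth for all samples, and the reads obtained from each library were not used here. In bulk tissue, fewer cells of a type and less RNA per cell cannot be told apart.

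The 3 primary granule genes chosen were detected at more than trace level in mice 2278 and 2279 only, of the 6 libraries. *Mpo*, encoding myeloperoxidase, which makes hypochlorous acid, was at 2.01 and 0.869 FPKM in mice 2278 and 2279 and at 0.0443 in WT mouse 2280, and it was listed at 0 in mouse 2276 and WT mice 2277 and 2281. *Elane*, encoding neutrophil elastase, was at 1.72 and 0.931 FPKM in mice 2278 and 2279, and in mouse 2276 its level was 0.0380. In WT mouse 2280 *Elane* was at 0.0621 FPKM, and it was listed at 0 in the other two WT mice. *Prtn3*, encoding proteinase 3, a serine protease close to elastase, was at 1.16 and 0.786 FPKM in mice 2278 and 2279. It was listed at 0 in mouse 2276 and in WT mouse 2277 and was at 0.0256 FPKM in WT mouse 2280 and 0.0299 in WT mouse 2281. For these 3 genes mouse 2276 lay within the range of the WT mice, with *Mpo* and *Prtn3* listed at 0 there, so the genotypes overlapped as the values are listed, while mice 2278 and 2279 were 15.0 to 45.3 times the highest WT value.

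**Figure D1:**
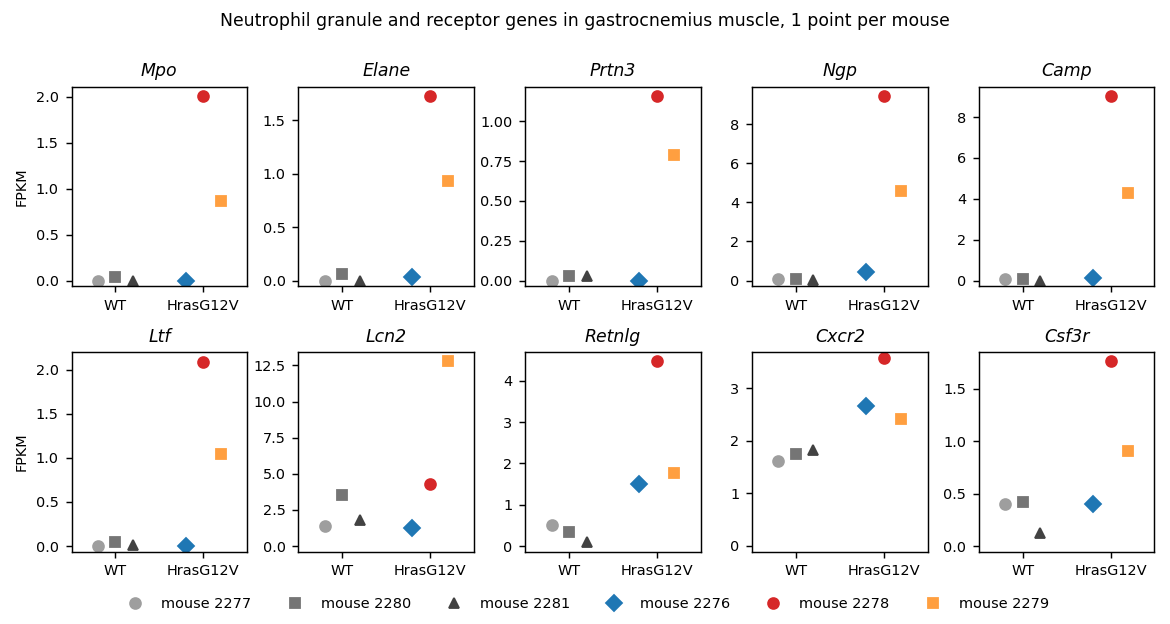
FPKM of the 10 genes (vertical axis, from 0, a separate scale for each gene) in WT and HrasG12V muscle, with 1 point per mouse. Mice 2278 (red circle) and 2279 (orange square) stand above all other points for every gene except *Cxcr2*. There mouse 2276 (blue diamond, 2.65) is above mouse 2279 (2.41). For *Lcn2* mouse 2278 (4.29) is only just above WT mouse 2280 (3.56). For *Mpo*, *Prtn3* and *Ltf* mouse 2276 lies at 0.

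*Prtn3* and *Elane* are neighbours on chromosome 10 of GRCm38, the first spanning 79874476 to 79883174 and the second 79886247 to 79888215, both on the plus strand and 3073 bases apart in the GENCODE vM21 annotation. *Mpo* lies on chromosome 11 from 87793581 to 87804413, plus strand. The annotated span of *Prtn3* overlaps that of *Plppr3* and the span of *Mpo* that of *Gm11505*, both on the opposite strand. The kit kept strand, but whether it was used in the quantification is not given in the sources used here.

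The mean FPKM of *Mpo*, *Elane* and *Prtn3* over 6 libraries was 0.487, 0.459 and 0.333, below the minimum of 0.5 set for the fit across genes, so none of the 3 was tested there. With no such minimum (19388 genes), log2 fold changes were 2.38, 2.44 and 2.03, limma's unadjusted p-values 0.0715, 0.0420 and 0.0746, and its adjusted p-values 0.549, 0.528 and 0.553. Because most values are 0 or near 0, these fold changes depend on the 0.1 added before taking logs and are not estimates of the true ratio. An exact permutation test of each gene (two-sided, n = 3 against 3) gave p = 0.4, 0.2 and 0.4, where 0.1 is the smallest p that this design allows.

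Most other primary granule and promyelocyte genes were low in the same way. *Ctsg*, encoding cathepsin G, was at 0.705 and 0.341 FPKM in mice 2278 and 2279 and at 0 to 0.0242 in the other 4 mice. *Ms4a3*, a marker of granulocyte and monocyte precursors, was at 0.467 and 0.176 FPKM in these mice and listed at 0 in the other 4. Over the 9 genes of this list, none was above every WT value in mouse 2276, against 9 in mouse 2278 and 8 in mouse 2279, where 43.1%, 31.7% and 33.7% of all tested genes were. The summed level was 0.948, 7.41 and 4.12 FPKM in mice 2276, 2278 and 2279 and 0.727 to 1.13 FPKM in WT mice. Only *Prss57*, encoding a serine protease of the same granules, reached the mean of 0.5 FPKM. It was at 0.892, 0.947 and 0.600 FPKM in mice 2276, 2278 and 2279 and at 0.650 to 0.943 in WT mice, with a log2 fold change of 0.02 and a limma adjusted p of 0.992.

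Of the 4 secondary granule genes chosen, *Ngp* and *Camp* had the highest levels in mouse 2278 and lay close together in mice 2278 and 2279. *Ngp*, encoding neutrophilic granule protein, was at 0.415, 9.42 and 4.60 FPKM in mice 2276, 2278 and 2279 and at 0.0785, 0.103 and 0.0304 in WT mice 2277, 2280 and 2281. Every HrasG12V mouse was above every WT mouse, and mice 2278 and 2279 stood 91.3 and 44.5 times above the highest WT value, against 4.02 times for mouse 2276. The log2 fold change of *Ngp* was 4.08 (standard error 1.05, limma unadjusted p = 0.00672, adjusted p = 0.382). It was the largest of the 7 genes tested in this fit, while *Camp* was above it in some of the alternative fits.

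*Camp*, encoding cathelicidin, the precursor of an antimicrobial peptide, was at 0.128, 9.02 and 4.28 FPKM in mice 2276, 2278 and 2279. WT mouse 2277 had 0.0527 FPKM and WT mouse 2280 had 0.0528, and the gene was listed at 0 in WT mouse 2281. The genotypes did not overlap, though mouse 2276 was far nearer to the WT mice than to the other HrasG12V mice. The log2 fold change was 3.98 (standard error 1.34, limma unadjusted p = 0.0225, adjusted p = 0.449). The unadjusted p of *Camp* stayed below 0.05 in 1 of the 6 sets of 5 mice, the set without mouse 2276, and rose to between 0.0513 and 0.0852 in the other 5.

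*Ltf*, encoding the iron-binding protein lactoferrin, was at 2.09 and 1.04 FPKM in mice 2278 and 2279 and listed at 0 in mouse 2276. It was listed at 0 in WT mouse 2277 and was at 0.0426 and 0.010 in WT mice 2280 and 2281, so the genotypes overlapped through mouse 2276. Its log2 fold change was 2.44 (limma adjusted p = 0.581, standard error 1.31).

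*Lcn2*, encoding lipocalin 2, which withholds iron from bacteria by binding siderophores and is also made by cells other than neutrophils, did not follow the other granule genes. It was at 1.23, 4.29 and 12.8 FPKM in mice 2276, 2278 and 2279 and at 1.39, 3.56 and 1.83 in WT mice 2277, 2280 and 2281. Mouse 2276 was below every WT mouse, mouse 2279 was the highest, and WT muscle already had a level of 2.26 ± 1.15 FPKM (SD, n = 3). A log2 fold change of 0.95 (limma adjusted p = 0.733, standard error 0.81) was within the spread between mice. It was 0.14 without mouse 2279 and 1.78 without mouse 2276.

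*Camp*, *Ngp* and *Ltf* all lie on chromosome 9 of GRCm38. *Camp* spans 109847379 to 109849617 (minus strand), *Ngp* 110419747 to 110423012 and *Ltf* 111019271 to 111042767 (both plus strand). *Lcn2* lies on chromosome 2 from 32384633 to 32388252 (minus strand).

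Stretches of the promoters of a secondary granule gene, *Ngp*, and of the neighbouring primary granule genes *Elane* and *Prtn3* are printed because C/EBP and PU.1 are the transcription factors best known for driving these 2 steps. Each runs from 170 to 71 bases before the RefSeq start of the gene on GRCm38.p6, plus strand, and capitals mark the searched letters, TTGCNNAA for C/EBP and GAGGAA for PU.1. The places are chr9:110419638-110419737 for *Ngp*, chr10:79886142-79886241 for *Elane* and chr10:79879497-79879596 for *Prtn3*. For each of these genes the RefSeq start lies downstream of the GENCODE start. Only for *Prtn3* does the printed stretch itself lie inside the GENCODE span given above.
Ngp: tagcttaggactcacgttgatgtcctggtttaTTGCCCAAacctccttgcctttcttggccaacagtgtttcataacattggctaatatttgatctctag
Elane: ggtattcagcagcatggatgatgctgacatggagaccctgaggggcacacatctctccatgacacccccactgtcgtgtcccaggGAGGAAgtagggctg
Prtn3: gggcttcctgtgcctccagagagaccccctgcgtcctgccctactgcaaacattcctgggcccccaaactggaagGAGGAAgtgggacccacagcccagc
In the 250 bases before the start, on either strand, TTGCNNAA was found in 4 of the 10 genes (*Ngp*, *Ltf*, *Lcn2* and *Retnlg*) and in 9.56% of all 32851 RefSeq promoters. GAGGAA was found in 7 of the 10 (*Mpo*, *Elane*, *Prtn3*, *Ltf*, *Lcn2*, *Cxcr2* and *Csf3r*) and in 23.3% of all promoters, and it began 85 and 95 bases before the start of *Elane* and *Prtn3*. TAACNG, a MYB motif, was found in *Mpo* and *Elane* and in 19.8% of all promoters, and TGTGGT, a RUNX motif, in 0 of the 10 and in 14% of all promoters. These matches are descriptions of letters and not of binding.

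Of the 3 genes of mature neutrophils, *Retnlg* and *Cxcr2* were above every WT value in mouse 2276 too, and *Csf3r* was not. *Retnlg*, encoding resistin-like gamma, a secreted protein of mouse neutrophils, was at 1.505, 4.47 and 1.78 FPKM in mice 2276, 2278 and 2279 and at 0.498, 0.331 and 0.0986 in WT mice 2277, 2280 and 2281. Every HrasG12V mouse was at least 3.02 times above the highest WT mouse, and mice 2276 and 2279 were close to each other. The log2 fold change was 2.69 (standard error 0.58, limma unadjusted p = 0.00270, adjusted p = 0.342). Leaving out each mouse in turn gave 2.22 to 3.03, with unadjusted p-values of at most 0.00925.

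*Cxcr2*, encoding the chemokine receptor through which neutrophils leave the marrow and enter tissue, was at 2.65, 3.58 and 2.41 FPKM in mice 2276, 2278 and 2279 and at 1.62, 1.74 and 1.83 in WT mice 2277, 2280 and 2281. The genotypes did not overlap, at 2.88 ± 0.616 FPKM against 1.73 ± 0.104 FPKM (SD, n = 3 each). The log2 fold change was 0.68 (standard error 0.20, limma unadjusted p = 0.0120, adjusted p = 0.410). The unadjusted p was 0.0508 without WT mouse 2277 and 0.127 with libraries rescaled to the same total FPKM. Under that rescaling mouse 2276 lay within the range of the WT mice, so the genotypes overlapped for *Cxcr2*.

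*Csf3r*, encoding the receptor for granulocyte colony-stimulating factor, was at 0.398, 1.76 and 0.907 FPKM in mice 2276, 2278 and 2279 and at 0.405, 0.417 and 0.119 in WT mice 2277, 2280 and 2281. Mouse 2276 was within the WT range and the other two HrasG12V mice were above it. Its log2 fold change was 1.34 (limma adjusted p = 0.539, standard error 0.64). *Cxcr2*, *Csf3r* and *Retnlg* lie on chromosomes 1 (74153989 to 74161246), 4 (126024550 to 126044440) and 16 (48872621 to 48874496) of GRCm38, all on the plus strand.

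Counted together, 4 of the 7 genes tested (*Ngp*, *Camp*, *Retnlg* and *Cxcr2*) had a limma unadjusted p below 0.05 with a higher level in HrasG12V muscle, where 5.18% of the 13359 genes tested did. By limma's adjusted p, 0 of the 7 were called, where 0.0524% of all genes were called with a higher level. Of all 10 genes, 4 had every HrasG12V mouse above every WT mouse, the same 4, against 8.11% of the genes tested. *Ngp*, *Camp*, *Ltf*, *Retnlg* and *Csf3r* reached the minimum mean of 0.5 FPKM only through the HrasG12V mice, so counts over the genes tested are no independent support for a difference.

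The counts depended on mouse 2276. Without it, all 7 genes tested had both HrasG12V mice above every WT mouse (19.9% of all genes) and a limma unadjusted p below 0.05 with a higher level (12.4% of all genes), and 4 had an adjusted p below 0.05 (5.37% of all genes), with log2 fold changes of 5.32 for *Ngp* (adjusted p = 0.00374), 5.57 for *Camp* (0.00392), 3.77 for *Ltf* (0.0130) and 2.98 for *Retnlg* (0.0497). In a fit of mouse 2276 alone against the 3 WT mice, which assumes that the single mouse varies as the WT mice do, *Ngp* had a log2 fold change of 1.62 (limma adjusted p = 0.0347), *Retnlg* of 2.11 (0.106) and *Cxcr2* of 0.59 (0.0527). In that fit 1 of the 7, *Ngp*, was called higher at an adjusted p below 0.05 (17.4% of all genes) and 3 at an unadjusted p below 0.05 (25.5% of all genes), and *Ltf* and *Lcn2* turned to -0.22 and -0.72.

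**Figure D2:**
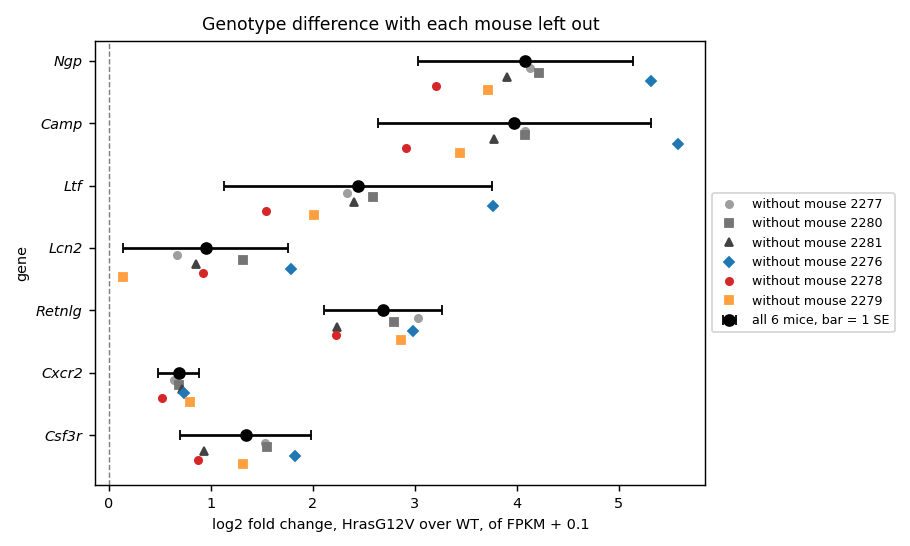
Log2 fold change of FPKM + 0.1, HrasG12V over WT (horizontal axis), for the 7 genes tested (vertical axis), with all 6 mice (black, bar = 1 standard error) and with each mouse left out (coloured points). Leaving out mouse 2276 (blue diamonds) gives the highest value for *Ngp* (5.32), *Camp* (5.57), *Ltf* (3.77), *Lcn2* (1.78) and *Csf3r* (1.83), and every point is above 0.

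Ratios within a mouse do not depend on scaling between libraries. In mice 2278 and 2279 *Mpo* was at 0.213 and 0.189 of the level of *Ngp*, *Elane* at 0.183 and 0.203, *Ltf* at 0.222 and 0.227, *Camp* at 0.958 and 0.931, and *Csf3r* at 0.187 and 0.197. For these 5 genes the proportion to *Ngp* was thus nearly alike in both mice. *Prtn3*, at 0.123 and 0.171 of *Ngp*, and *Cxcr2*, at 0.380 and 0.524, differed more. *Lcn2* was at 0.456 of *Ngp* in mouse 2278 and at 2.79 in mouse 2279, the largest difference among the genes given here. In mouse 2276 the proportions were different, since *Retnlg* was at 3.63 times *Ngp* there, against 0.474 and 0.387 in mice 2278 and 2279 and 3.21 to 6.35 in WT mice. *S100a8* was at 21.9 times *Ngp* in mouse 2276, 6.40 and 4.66 times in mice 2278 and 2279, and 6.52 to 18.3 times in WT mice. With 1 library per mouse and few reads behind values near 0, these ratios have no error of their own.

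The stage lists showed the same split between mouse 2276 and the other HrasG12V mice. Of 17 mature neutrophil genes found, 7 were above every WT value in mouse 2276, 16 in mouse 2278 and 14 in mouse 2279, beside the same shares of all tested genes (43.1%, 31.7% and 33.7%). The summed level of this list was 28.0, 144 and 63.0 FPKM in mice 2276, 2278 and 2279 and 4.72 to 10.7 FPKM in WT mice. In the HrasG12V mice most of it came from *S100a8* and *S100a9*, encoding the calcium-binding proteins that fill the neutrophil cytosol, which in mouse 2276 were at 9.06 and 10.1 FPKM, against a highest WT value of 1.89 and 1.70. Of the 10 mature neutrophil genes tested, 5 had a limma unadjusted p below 0.05 with a higher level (5.18% of all genes), 0 with a lower level and 0 an adjusted p below 0.05. Among them were *S100a8*, *S100a9*, *Retnlg* and *Cxcr2*. Here too 5 of the 10 reached the minimum mean only through HrasG12V mice.

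Of 14 secondary and tertiary granule genes, 5 were above every WT value in mouse 2276, 13 in mouse 2278 and 11 in mouse 2279, beside 43.1%, 31.7% and 33.7% of all tested genes. *Chil3*, encoding a chitinase-like protein of neutrophil granules and macrophages, was at 0.123, 3.28 and 1.496 FPKM in mice 2276, 2278 and 2279 and at 0 to 0.166 in WT mice (log2 fold change 2.84, limma unadjusted p = 0.0391, adjusted p = 0.481). *Pglyrp1*, encoding a peptidoglycan-binding granule protein, was at 0.821, 4.93 and 4.34 FPKM against 0.351 to 0.510 in WT mice (log2 fold change 2.38, limma unadjusted p = 0.00936, adjusted p = 0.396). With *Ngp* and *Camp*, these were the 4 of 8 genes tested that had an unadjusted p below 0.05 with a higher level (5.18% of all genes). None had a lower level at that limit, and 0 had an adjusted p below 0.05. *Mmp8*, the neutrophil collagenase, was at 0.633 and 0.387 FPKM in mice 2278 and 2279 and at no more than 0.0621 in the other 4 mice, and *Bpi* was listed at 0 in all 6. Of the 8 genes tested, 5 (*Ngp*, *Camp*, *Ltf*, *Chil3* and *Pglyrp1*) reached the minimum mean only through HrasG12V mice, so this count is no independent support for a difference.

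**Figure D3:**
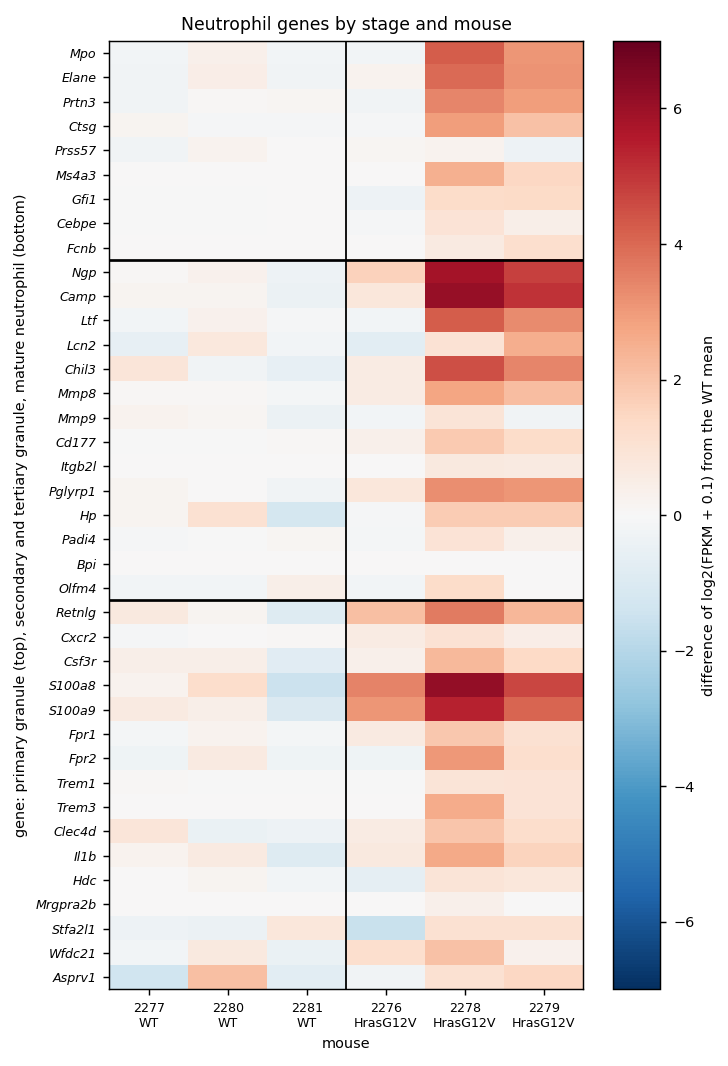
Difference of log2(FPKM + 0.1) from the mean of the 3 WT mice (colour, red above and blue below) for genes of the primary granule, secondary and tertiary granule and mature neutrophil lists (rows, 1 mature neutrophil gene not drawn) in each mouse (columns). Mouse 2278 is red for nearly all rows and mouse 2279 less so, while in mouse 2276 red is deepest at *S100a8*, *S100a9*, *Retnlg* and *Ngp* and the primary granule rows stay near white.

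The subunits of the phagocyte oxidase, which neutrophils share with macrophages and B cells, were highest in mouse 2278, then in mouse 2279. *Ncf4*, encoding a cytosolic subunit, was at 1.61, 3.89 and 2.63 FPKM in mice 2276, 2278 and 2279 and at 0.378 to 0.623 in WT muscle (log2 fold change 2.08, standard error 0.38, limma unadjusted p = 0.00107, adjusted p = 0.288). Of the 5 subunits tested, 4 had a limma unadjusted p below 0.05 with a higher level (5.18% of all genes), *Cyba*, *Ncf1* and *Ncf4* among them, and 0 had an adjusted p below 0.05. *Cybb*, the membrane subunit, was at 0.565, 4.67 and 2.70 FPKM in mice 2276, 2278 and 2279, and the first of these values is below the WT range of 0.889 to 1.38. The median log2 fold change of the 5 was 1.18, beside -0.03 over all genes tested.

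Most of the signals that draw neutrophils into tissue were low. Of 11 ligand and cytokine genes, 1, 4 and 3 were above every WT value in mice 2276, 2278 and 2279, beside 43.1%, 31.7% and 33.7% of all tested genes. Of the list, *Cxcl3* and *Il17a* were listed at 0 in all 6 libraries, and *Csf3*, encoding granulocyte colony-stimulating factor, was at no more than 0.181 FPKM in any. *Cxcl1*, a ligand of CXCR2, was at 1.105, 0.577 and 0.415 FPKM in mice 2276, 2278 and 2279 and at 0.169 to 0.546 in WT mice. *Ppbp*, another CXCR2 ligand and a platelet product, was at 0.287, 0.915 and 1.40 FPKM against 0.194 to 0.346. *Tnf*, encoding the inflammatory cytokine TNF, was at 0.357 and 0.579 FPKM in mice 2278 and 2279 and at 0.0187 in mouse 2276. In mice 2278 and 2279 that was 11.8 and 19.2 times the highest WT value, itself only 0.0302 FPKM. *Tnf* did not reach the minimum mean for a test. *Cxcl2*, a further CXCR2 ligand, was at 0.124 and 0.166 FPKM in mice 2278 and 2279 and listed at 0 in the other 4. *Il6*, encoding interleukin 6, was listed at 0 in mouse 2276 and was at 0.154 and 0.129 FPKM in mice 2278 and 2279, all below the WT range of 0.192 to 0.212. *Cxcl12*, which holds neutrophils in the marrow, was at 41.8 to 64.1 FPKM in HrasG12V and 45.5 to 64.2 FPKM in WT muscle. Of the 3 genes tested, 0 had a limma unadjusted p or adjusted p below 0.05 in either direction. That is too few genes to set against the 5.18% of all genes called higher at the unadjusted limit. Of 6 endothelial adhesion genes, 5 were tested. Among these, 1 had a limma unadjusted p below 0.05 with a higher level, beside the same 5.18% of all genes. It was *Vcam1* (3.35, 8.64 and 9.88 FPKM against 2.93 to 3.36, log2 fold change 1.05, limma unadjusted p = 0.0353, adjusted p = 0.481). The call was kept in 1 of the 6 fits with a mouse left out. *Icam1*, encoding an adhesion molecule that binds neutrophil integrins, was at 1.76, 6.01 and 7.04 FPKM against 1.52 to 2.05 (log2 fold change 1.16, limma unadjusted p = 0.0583, adjusted p = 0.508). *Sele*, encoding E-selectin, was at no more than 0.1503 FPKM in any library, and the median of the 5 was 0.46.

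Transcripts of B cells, T cells and lymph node stroma were high in the same mice as the granule genes, while the summed erythroid list followed another order. All 5 B cell genes, among them *Cd79a* and *Cd79b*, which encode the signalling chains of the B cell receptor, were above every WT value in mice 2278 and 2279 (19.9% of all tested genes were in both), with sums of 77.2 and 61.0 FPKM. Mouse 2276 had 1.35 and the WT mice 0.614 to 1.19, and 3 of the 5, *Cd79a* and *Cd79b* among them, had a limma unadjusted p below 0.05 with a higher level, as did 5.18% of all genes. All 5 T cell genes were too, beside the same 19.9%, with sums of 23.9 and 32.0 FPKM, against 0.865 for mouse 2276 and 0.701 to 0.942 for WT muscle, and 3 of them, *Cd3d*, *Cd3e* and *Cd3g*, had a limma unadjusted p below 0.05 (5.18% of all genes). The lymph node stroma list summed to 243 and 368 FPKM in these mice, against 6.76 for mouse 2276 and 2.45 to 7.90 for WT muscle, and *Glycam1*, *Ccl21a* and *Ccl19*, the latter pair encoding chemokines of lymphoid stroma, had a limma unadjusted p below 0.05 (3 of 4 tested, beside 5.18% of all genes). The erythroid list, of which 9 of 10 genes were found, summed to 766 FPKM in mouse 2276, 529 and 230 in mice 2278 and 2279 and 245 to 278 in WT mice. These sums were not rescaled to the same total FPKM, which was largest in mouse 2276 (814013), so their order can depend on scaling. Of its 7 genes tested, 2 had a limma unadjusted p below 0.05 with a higher level (5.18% of all genes), among them *Slc4a1*, encoding the anion exchanger of the red cell membrane (log2 fold change 2.40, limma unadjusted p = 0.00316, adjusted p = 0.349). *Hba-a1*, an alpha globin gene, was at 429 FPKM in mouse 2276, 2.69 times the highest WT value, and at 120 in mouse 2279, below the lowest WT value of 128. All 5 B cell genes, all 5 T cell genes and 2 of the 4 lymph node stroma genes tested reached the minimum mean only through HrasG12V mice, so these calls are no independent support for a difference. The part of these cells in the levels of the neutrophil genes was not tested.

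**Figure D4:**
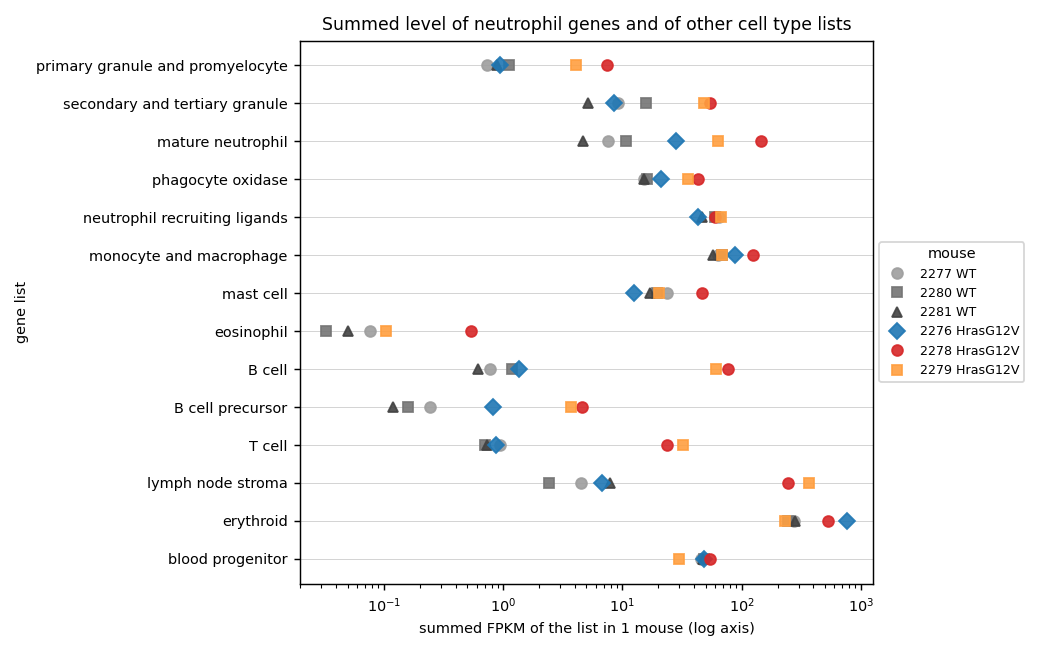
Summed FPKM of each gene list in 1 mouse (horizontal axis, log scale) for neutrophil lists and lists of other cell types (vertical axis), with 1 point per mouse. Mice 2278 and 2279 stand apart for the primary granule list and for the B cell, the T cell and the lymph node lists, and mouse 2276 is above the WT mice for the mature neutrophil list (28.0). For the erythroid list, without rescaling to the same total FPKM, mouse 2276 is the highest (766) and mouse 2279 (230) is below every WT mouse. The eosinophil sum of 0 of mouse 2276 is not drawn.

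Genes of bone and of marrow precursors were examined because granule genes are transcribed in marrow. Of 8 bone genes, *Ibsp* and *Bglap2* were listed at 0 in all 6 libraries and *Bglap* was at no more than 0.176 and *Sp7* at no more than 0.0828 in any. Of the 4 bone genes tested, 0 had a limma unadjusted p below 0.05, too few genes to set against the 5.18% of all genes called higher, and *Ctsk*, encoding cathepsin K of osteoclasts, was at 4.82, 10.8 and 4.55 FPKM in HrasG12V and 9.095 to 16.2 in WT muscle. *Acp5*, a phosphatase of osteoclasts and macrophages, was at 11.5 and 8.82 FPKM in mice 2278 and 2279 against 1.77 to 3.55 in the other 4. Among B cell precursor genes, *Vpreb3* was at 0.716, 2.88 and 3.30 FPKM in mice 2276, 2278 and 2279 and at 0.0684 to 0.177 in WT mice (log2 fold change 3.22, limma unadjusted p = 0.00169, adjusted p = 0.297), and it reached the minimum mean only through HrasG12V mice. *Rag1*, needed to rearrange antigen receptors, was at 0.382 and 0.124 FPKM in mice 2278 and 2279 and at no more than 0.0103 in the other 4, and *Igll1*, part of the surrogate light chain, was at 0.570 and 0.0865 FPKM, at 0.0802 in mouse 2276 and listed at 0 in all 3 WT mice. Of 6 blood progenitor genes, *Myb* was at 1.23 and 1.03 FPKM in mice 2278 and 2279 and at no more than 0.12 in the other 4, while *Cd34* was at 21.2 FPKM in mouse 2279 and 39.9 to 47.8 in the other 5, and 0 of the 3 tested had an unadjusted p below 0.05 (5.18% of all genes were called higher).

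The balance between mice 2278 and 2279 differed between cell type lists. For the 10 genes, the FPKM in mouse 2278 was 2.05 times that in mouse 2279 for *Ngp*, 2.11 for *Camp*, 2.00 for *Ltf*, 2.31 for *Mpo*, 1.85 for *Elane*, 1.47 for *Prtn3*, 2.51 for *Retnlg*, 1.48 for *Cxcr2* and 1.94 for *Csf3r*, and 0.335 for *Lcn2*. Genes that in both mice were at least 2 times the highest WT value and at least 0.1 FPKM were then compared by list, a limit chosen after the values were seen. The median ratio was 1.96 over 6 primary granule genes (0.941 to 2.66) and 2.00 over 7 secondary and tertiary granule genes (1.14 to 2.19). Over 7 mature neutrophil genes it was 2.37 (1.18 to 2.81), and over 3 phagocyte oxidase genes 1.32 (1.32 to 1.48). It was 1.25 over 5 B cell genes (1.18 to 1.498), 0.706 over 5 T cell genes (0.688 to 0.853) and 0.654 over 5 lymph node stroma genes (0.547 to 1.71). The ranges of the neutrophil lists overlapped those of the B cell and lymph node stroma genes, and not that of the T cell genes. *Slc4a1* and *Epb42*, genes of the red cell membrane, had ratios of 2.24 and 2.56, close to those of the granule genes, while *Klf1*, an erythroid transcription factor, had 0.670. *Pglyrp1* (1.14) was nearer to the B cell genes. The ratios come from 1 pair of libraries and carry no replicate error.

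**Figure D5:**
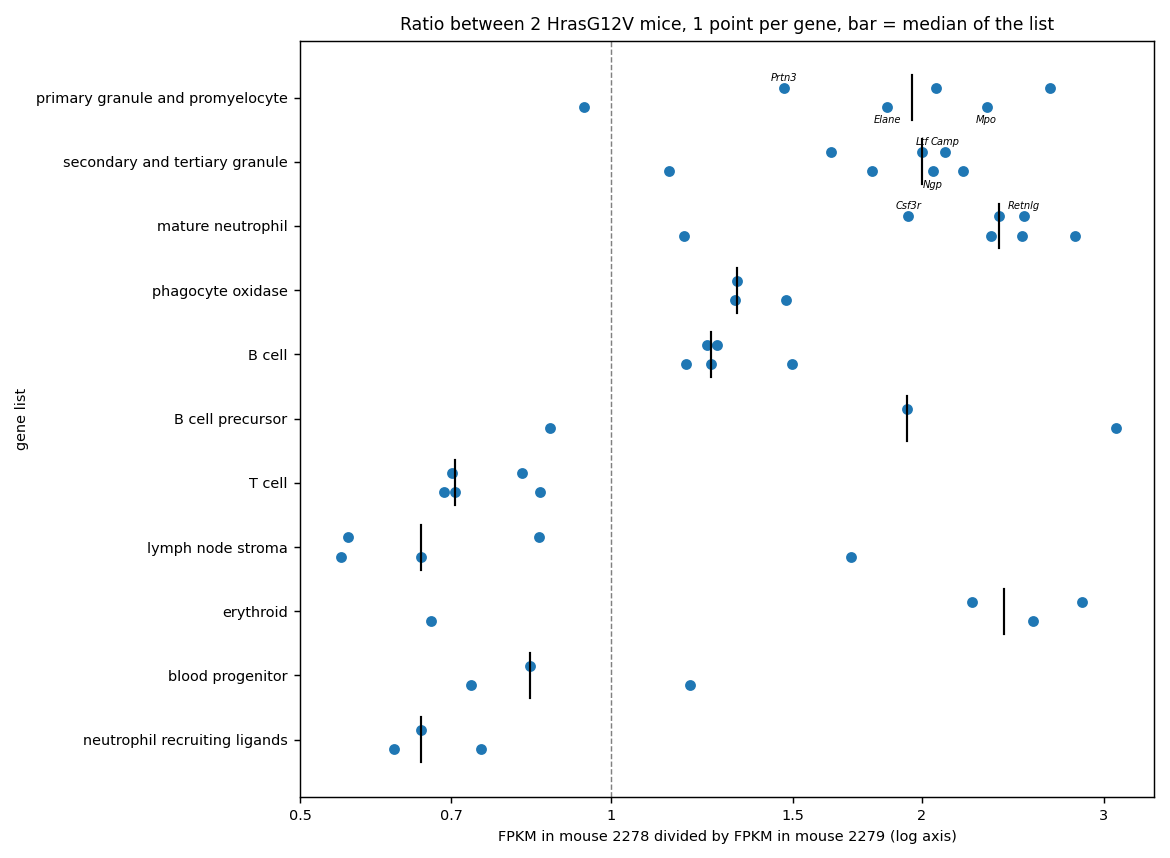
FPKM in mouse 2278 divided by FPKM in mouse 2279 (horizontal axis, log scale) for genes at least 2 times the highest WT value in both mice, by list (vertical axis), with 1 point per gene, names at the 10 genes described here where they reach these limits, and a bar at the median. Most granule genes lie near 2 (medians 1.96 and 2.00), B cell genes near 1.25 and T cell genes near 0.706.

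The 10 genes whose levels over the 6 mice were most like the mean log2 level of the 7 genes tested included *Smc4*, *Cyth4*, *Lat2*, *Aim2*, *Bank1*, *Bcl3*, *Uba7*, *Blnk* and *Epsti1*, with Pearson's r of 0.995 to 0.998 over 6 mice among 12173 genes with a mean of at least 1 FPKM. *Bank1* and *Blnk* encode adaptors of B cells. *Bank1* was at 0.199, 3.48 and 2.48 FPKM in mice 2276, 2278 and 2279 and at 0.0508 to 0.181 in WT mice. Of the genes compared, 524 (4.30%) had r above 0.9. The points share their libraries and their scaling, so these values describe likeness only.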

How the data were processed

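mRNA of gastrocnemius muscle from 3 HrasG12V and 3 WT mice was sequenced in stranded libraries as single-end reads. According to the methods and the submitters' processing notes, the authors aligned reads with TopHat to GRCm38 (mm10) and deposited FPKM per gene from Cufflinks and Cuffnorm, scaled between libraries. Tool versions and the gene annotation: not given in the sources used here. Sums of FPKM (413020 to 814013) are not depths, so precision is known only from the spread between mice. Genotypes come from the sample titles. Nothing says whether the samples of a genotype share a litter.

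The 13359 genes whose mean was at least 0.5 FPKM were compared between genotypes on the scale of log2(FPKM + 0.1) by limma (version 3.58.1, R 4.3.3), with no covariate and with variances moderated along a trend over abundance. P-values were adjusted over all genes tested by the Benjamini-Hochberg method. A gene was called at 0.05, unadjusted and adjusted. Single genes were also compared by an exact permutation test over the 20 ways to assign 6 mice.

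The 10 genes and all lists were chosen with earlier results of these data known. List symbols were matched by name or, for 4 of them, by a RefSeq synonym, and *Ly6g* and *Ahsp* were not matched. Named genes are the 10 genes, list genes with an unadjusted p below 0.05, or otherwise the 2 most abundant of a list, and the 10 genes most like the mean profile. *Ctsg*, *Ms4a3*, *Mmp8*, *Sele*, *Csf3*, *Cxcl1*, *Cxcl2*, *Tnf*, *Il6*, *Icam1*, *Ckm*, *Hba-a1*, *Mb*, *Cybb*, *Rag1*, *Igll1*, *Bglap*, *Sp7*, *Ly6c2*, *Cebpb*, *Cebpe*, *Cebpd*, *Myb*, *Klf1*, *Epb42* and genes listed at 0 were named after their values were seen. Alternatives were other pseudocounts, filters, scalings, moderation, library weights and leaving out each mouse. A fit of mouse 2276 alone against WT was added after the data were seen. Promoters and gene positions came from RefSeq GRCm38.p6 and GENCODE vM21 on GRCm38. Python 3.11.15 was used for tables, and matplotlib 3.10.9 for plots. Some genes of the lists are counted but not reported here by name.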

Additional observations from a re-analysis of the deposited data

How the results depend on the processing

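No paired analysis was possible because the WT mice are called littermates but the labels do not give the litter of each mouse. The count of genes with a limma unadjusted p below 0.05 and a higher level was 4 of 7 with all 6 mice, 7 with library weights, and 2 to 7 with each mouse left out (2 without WT mouse 2277, 7 without mouse 2276). The count with an adjusted p below 0.05 was 0, 2 with library weights, 1 for mouse 2276 alone against WT, and 0 to 4 with each mouse left out (4 without mouse 2276). The count with every HrasG12V mouse above every WT mouse was 4, 3 with libraries rescaled to the same total (*Cxcr2* was lost), and 4 to 7 with each mouse left out (7 without mouse 2276). The log2 fold changes of *Ltf* and *Lcn2* turned to -0.22 and -0.72 for mouse 2276 alone. For single genes and the unadjusted p, 100 values kept direction and side of the limit, 9 lost the call, 6 gained it and 2 turned direction, over all alternatives. The size of the fold depended on the pseudocount, at 2.02 for *Ngp* and 1.92 for *Camp* with 1 added and 5.16 and 5.68 with 0.01 added. No alternative moved the median log2 fold change of all genes past 0.1. The causes of these shifts were not tested, beyond the mouse that was left out. FPKM near 0 rest on few reads, and differences among them were not detectable with these values.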

Other observations

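Transcription factors of granulocyte development were measured too, and which cells their transcripts came from was not tested. *Spi1*, encoding PU.1, was at 1.90, 4.75 and 3.61 FPKM in mice 2276, 2278 and 2279 and at 0.994 to 1.23 in WT muscle (log2 fold change 1.41, limma unadjusted p = 0.00488, adjusted p = 0.377). *Cebpa* was at 5.28, 12.1 and 9.96 FPKM against 2.89 to 5.11 in WT mice (log2 fold change 1.12, limma unadjusted p = 0.0170, adjusted p = 0.433). These were 2 of the 5 tested of 7 listed, with 0 lower and a median log2 fold change of 0.71, beside 5.18% of all genes called higher and a median of -0.03. *Cebpe*, which drives secondary granule genes, was at 0.143 and 0.0656 FPKM in mice 2278 and 2279 and at no more than 0.0288 in the other 4. *Cebpb*, the most abundant of the list, was at 97.0 FPKM in mouse 2276, at 21.1 in mouse 2278, below the WT range of 39.7 to 46.3, and at 43.0 in mouse 2279. *Cebpd* was at 55.5 FPKM in mouse 2279, at 17.3 and 10.6 in mice 2276 and 2278 and at 13.2 to 17.2 in WT mice.

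Genes of other granulocytes, of macrophages and of platelets were also measured. The 6 mast cell genes, led by the proteases *Mcpt4* and *Tpsb2*, summed to 12.4, 46.6 and 20.2 FPKM in mice 2276, 2278 and 2279, against 17.1 to 23.6 for WT muscle, and 0 of 4 tested had a limma unadjusted p below 0.05, where 5.18% of all genes were called higher. The 6 eosinophil genes summed to 0, 0.540 and 0.104 FPKM in the same order, against 0.0330 to 0.0768 for WT muscle, and none reached the minimum for a test. The 11 monocyte and macrophage genes summed to 87.5, 124 and 68.9 FPKM in mice 2276, 2278 and 2279 and 57.4 to 68.4 in WT mice, with *C1qa* and *Cd14* the 2 of 10 tested with a limma unadjusted p below 0.05 and a higher level, as for 5.18% of all genes (0.0472 and 0.0482, adjusted p 0.488 and 0.490). *Ly6c2*, a marker of blood monocytes, was at 5.03 and 4.07 FPKM in mice 2278 and 2279, listed at 0 in mouse 2276, and between 0.115 and 0.287 in WT muscle. The 6 megakaryocyte and platelet genes, led by *Pf4* and *Itga2b*, summed to 18.8, 19.9 and 8.99 FPKM in mice 2276, 2278 and 2279 and 9.38 to 11.3 in WT mice, with 0 of 2 tested at an unadjusted p below 0.05, beside the same 5.18%.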
